A study of Homo sapiens with 18 samples.

Results

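DAP, LRRC58, B4GALNT1, TMEM123, TWF1, MLEC, CEND1 and SAPCD2 are 8 of the 26668 gene symbols measured by RNA-seq after OFD1 knockdown in PANC1, PATU8988T and MIA PaCa-2, established lines of human pancreatic cancer. The 8 genes were chosen by the size of their fall after knockdown in at least 1 of these lines, so their own changes are given below as a description, with standard errors and no p-values. Expression was given as FPKM, reads on a gene per base of its length and per read of the library. A gene counted as tested in a line when its mean over the 6 libraries of the line was at least 1 FPKM, which held for 8 of the 8 in PANC1 and for 7 of the 8 in each of the other lines. CEND1 was the gene below that level in the other two lines.

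Each line was represented by 3 control and 3 OFD1 knockdown libraries, 18 in all. The knockdown samples are labelled as carrying shOFD1 and as induced with doxycycline for 72 h. The controls are labelled shControl in their titles and WT with no treatment elsewhere, whereas the study's methods describe uninduced Tet-on-shOFD1 cells given DMSO, so a control shRNA and an uninduced OFD1 shRNA cannot be told apart, nor can an effect of doxycycline itself where the controls had none. The methods name a pair of OFD1 shRNAs and do not say which was used for these libraries, and no clone is named. For PATU8988T, replicates 2 and 3 carry source labels that name other line numbers, and the titles were followed. FPKM is a share of the library, so that fewer transcripts per cell and fewer cells carrying a transcript could not be told apart.

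The 8 genes belong to different pathways. DAP is a small proline-rich substrate of mTOR that restrains autophagy, and B4GALNT1 is the enzyme that adds N-acetylgalactosamine to gangliosides, making GM2 and GD2. TMEM123, also called porimin, is a sialomucin-like protein of the cell surface, and MLEC, or malectin, is a lectin of the endoplasmic reticulum that binds glucosylated N-glycans. TWF1 is twinfilin 1, which binds actin monomers and capping protein. SAPCD2 takes part in orienting the mitotic spindle, CEND1 is a membrane protein known from neurons leaving the cell cycle, and LRRC58 is a leucine-rich repeat protein. An shRNA is processed into a guide strand that cuts a fully matching transcript, and bases 2 to 8 of the guide, the seed, can also lower transcripts that match only there, mostly through sites in the 3′ UTR.

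OFD1 target sites, and places where any of the 8 genes matches the shOFD1#1 seed, are given 5′ to 3′. They were read from GENCODE transcripts of GRCh38, with the 7 seed bases or their match in capitals. The part of such sites in any fall was not tested. Each gene site is shown over the 19 bases that line up with the OFD1 site.
shOFD1#1 site in OFD1, coding sequence, exon 20, chrX:13767249-13767267, plus strand: gaacgaagagaACTAGAAa
shOFD1#1 guide: tTTCTAGTtctcttcgttc
shOFD1#2 guide, site in exon 14, chrX:13757715-13757733: aACCACTAtagccttttcg
LRRC58, 3′ UTR, chr3:120331116-120331134, minus strand: gcttgaagttcACTAGAAa
LRRC58, 3′ UTR, chr3:120330103-120330121, minus strand: aaactaatacaACTAGAAa
DAP, 3′ UTR of DAP-201, chr5:10680891-10680909, minus strand: ccatatttaaaACTAGAAa
SAPCD2, 3′ UTR, chr9:137062198-137062216, minus strand: tagacccagatACTAGAAt
B4GALNT1, 5′ UTR, chr12:57633216-57633234, minus strand: cctccgcgcccACTAGAAg

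OFD1, the targeted gene, was measured in every library. In PANC1, its 3 controls were at 5.50, 5.12 and 5.67 FPKM and its knockdown libraries at 2.80, 2.27 and 2.58 FPKM, 46.9% of the control mean. For MIA PaCa-2 the OFD1 values were 3.09, 2.27 and 3.20 FPKM in the controls and 1.76, 1.74 and 1.97 FPKM after knockdown, 63.9% of the control mean. PATU8988T controls held 2.14, 1.93 and 2.12 FPKM of OFD1 and the knockdown libraries 0.986, 0.894 and 0.854 FPKM, 44.2% of the control mean. OFD1 was lower in every knockdown library than in any control of its line, with log2 fold changes of -1.07 (standard error 0.0901), -0.61 (standard error 0.159) and -1.10 (standard error 0.103) in the same order of lines, and -0.76 (standard error 0.0899) in MIA PaCa-2 without control replicate 2. The 8 genes all fell further than OFD1 in PANC1, as did the 7 tested in MIA PaCa-2, whereas in PATU8988T each of the 7 tested had a smaller change than OFD1, for LRRC58 and B4GALNT1 by less than the standard error of OFD1.

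A single library touched many values of MIA PaCa-2. Control replicate 2 stood apart from controls 1 and 3, and across 10077 genes its difference from them correlated with the GC content of the transcript with r of 0.88, against 0.02 for control 1 against control 3 (Pearson, across genes, which are not independent replicates). Relative to the mean of the other two controls, it was lower by 1.53, 1.37 and 1.07 on the log2 scale for TWF1, LRRC58 and TMEM123, whose transcripts have 36.4%, 37.9% and 39.2% GC. SAPCD2 and B4GALNT1, at 66.4% and 61.9% GC, were higher there by 0.78 and 0.41, and DAP and MLEC, at 54.3% and 50.3% GC, by 0.08 and 0.03. CEND1, at 66.2% GC, was not higher there but lower by 0.08. For the genes that this library moved most, MIA PaCa-2 values are also given without it. Depth was even, with 32486479 to 39797537 reads counted per library. KRT8 and KRT18, keratins of simple epithelia, had means of at least 318.7 FPKM in every group, EPCAM and CDH1 were at or below 0.0330 FPKM in both MIA PaCa-2 groups, KRT19 was at or below 0.00647 FPKM in both PATU8988T groups, and KRT19 went from 178 to 89.2 FPKM in PANC1. Of 9 markers of other cell types, CD3E of T cells was listed at 0 in all libraries, while the macrophage gene CD68 went from 34.6 to 18.1 FPKM in PANC1, from 52.5 to 69.3 FPKM in MIA PaCa-2 and from 13.8 to 10.8 FPKM in PATU8988T. The leukocyte gene PTPRC went from 3.51 to 6.002 FPKM in MIA PaCa-2 and the collagen COL1A1 from 26.1 to 22.3 FPKM in PANC1, and all others of the 9 were below 1 FPKM in mean in every group. None of these markers was called by limma, and their part in the changes of the 8 genes was not tested. In PANC1, MIA PaCa-2 and PATU8988T, 5 of 6, 1 of 3 and 2 of 3 tested epithelial markers had an unadjusted limma p below 0.05. Of the markers of other cell types, 2 of 2, 2 of 2 and 1 of 1 tested did. The shares of all tested genes were 74.3%, 50.3% and 48.5%. Some genes were counted with another length in PANC1 than in the other lines, OFD1 with 4150 bases against 9312 and MLEC with 10852 against 11164, so OFD1 levels are compared within lines only. The lengths of DAP, LRRC58, TMEM123, TWF1 and CEND1 were the same in the 3 lines, and those of B4GALNT1 and SAPCD2 differed by 1 to 2 bases.

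In PANC1, all 8 genes fell by more than 2-fold, and they kept between 8.81% and 35.6% of their control level. They include SAPCD2, whose knockdown mean there was 0.683 FPKM, so that it counted as tested only through its controls. Across all 10902 genes tested there, 4.87% fell by more than 2-fold. For MIA PaCa-2, 6 of the 7 tested did so, against 3.75% of the 10758 genes tested, and the share of the control level left ranged from 14.4% to 50.7%, or from 11.4% to 41.8% without control replicate 2. In PATU8988T, 2 of the 7 did so, LRRC58 and B4GALNT1, against 0.841% of the 10698 genes tested, and the share left ranged from 48.3% to 98.8%. Since the genes were chosen for falls in these comparisons, nothing is read from these counts beyond their description. The median log2 fold change of the 8 was -2.42 in PANC1, that of the 7 was -2.13 in MIA PaCa-2 and, in PATU8988T, -0.63, against a median over all genes tested of 0.06, -0.03 and 0.03. All knockdown libraries lay below all controls for 8 of 8, 7 of 7 and 6 of 7 of the genes, and 33.4%, 31.3% and 24.0% of all genes tested did the same in the 3 lines in that order. A total of 6 of the 8 fell furthest in PANC1, among them CEND1, which was tested in no other line. That order turned for TWF1 without MIA PaCa-2 control replicate 2, and for each of the 7 tested in PATU8988T the change was smallest there.

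**Figure D1:**
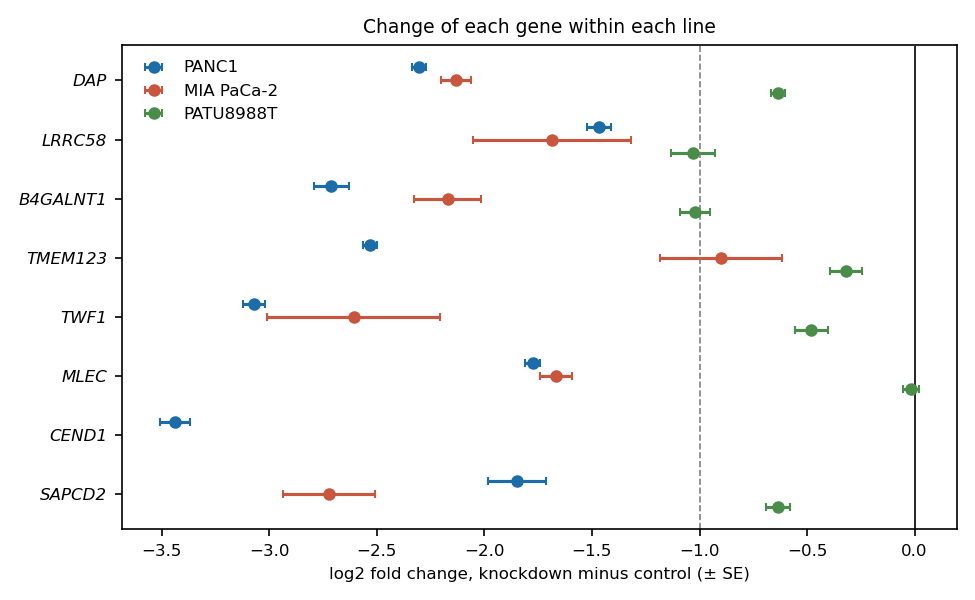
The log2 fold change of each gene (knockdown minus control, x axis) is drawn with its standard error as one point per line, the dashed line marking a 2-fold fall. PANC1 and MIA PaCa-2 points lie mostly left of the dashed line, while in PATU8988T only LRRC58 at -1.03 and B4GALNT1 at -1.02 reach it and MLEC sits at -0.02.

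TWF1, the actin monomer binding gene, had the third largest fall in PANC1. Its PANC1 values were 54.1, 55.0 and 51.6 FPKM in the controls and 6.37, 6.67 and 5.84 FPKM after knockdown, giving a log2 fold change of -3.07 (standard error 0.0531) with 11.7% of the control level left. In MIA PaCa-2, TWF1 went from 49.0, 16.8 and 48.2 FPKM to 5.52, 5.95 and 5.09 FPKM, a log2 fold change of -2.61 (standard error 0.403). The low control is replicate 2, which still lay above every knockdown library, and without it the change was -3.12 (standard error 0.0619). In PATU8988T, the controls were at 47.3, 45.5 and 42.1 FPKM and the knockdown libraries at 34.9, 28.2 and 33.9 FPKM, a log2 fold change of -0.48 (standard error 0.0781). The groups did not overlap in any line, and the level left in PATU8988T, 71.9%, was far above that in the other lines.

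CEND1 had the second largest fall in PANC1, was low in MIA PaCa-2 and nearly absent in PATU8988T. PANC1 controls held 22.5, 23.4 and 20.5 FPKM and knockdown libraries 2.07, 1.83 and 1.94 FPKM, a log2 fold change of -3.44 (standard error 0.0708) with 8.81% left. In MIA PaCa-2, where its mean was too low for the fit, CEND1 was at 1.53, 1.36 and 1.37 FPKM in the controls, that is 96, 87 and 86 reads. The knockdown libraries there held 0.0963, 0.328 and 0.0650 FPKM, or 6, 20 and 4 reads, 11.5% of the control mean. Every knockdown library was lower than every control in both lines. In PATU8988T, 2, 0 and 1 reads were counted on it in the controls and 0 in each knockdown library, so that a change was not detectable at this depth.

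B4GALNT1, the ganglioside enzyme, fell by more than 2-fold in all 3 lines. In PANC1, it went from 10.4, 10.2 and 10.7 FPKM to 1.47, 1.68 and 1.38 FPKM, a log2 fold change of -2.71 (standard error 0.0822). MIA PaCa-2 controls were at 7.97, 10.97 and 8.51 FPKM and knockdown libraries at 1.75, 2.20 and 1.88 FPKM, a log2 fold change of -2.17 (standard error 0.157), or -2.04 (standard error 0.0990) without control replicate 2. The PATU8988T values were 5.04, 4.76 and 5.10 FPKM against 2.27, 2.53 and 2.397 FPKM, a log2 fold change of -1.02 (standard error 0.0716). Its groups were separate in every line, and its PATU8988T fall was close to the 2-fold mark, at -0.98 without knockdown replicate 1.

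LRRC58, the leucine-rich repeat gene, was the other of the 8 with a fall of more than 2-fold in each line, and had the smallest fall of the 8 in PANC1. PANC1 controls were at 11.9, 12.3 and 11.9 FPKM and knockdown libraries at 4.22, 4.19 and 4.47 FPKM, a log2 fold change of -1.47 (standard error 0.0542). In MIA PaCa-2, the controls were at 13.98, 5.35 and 14.04 FPKM and the knockdown libraries at 3.14, 3.37 and 2.79 FPKM, a log2 fold change of -1.69 (standard error 0.368), which became -2.14 (standard error 0.0778) without control replicate 2. In PATU8988T, the values of 20.4, 20.6 and 18.6 FPKM went to 10.8, 7.97 and 10.4 FPKM, a log2 fold change of -1.03 (standard error 0.103). No knockdown library reached a control in any line, and without knockdown replicate 2, the lowest library, the PATU8988T change was -0.89. Among the 9083 genes tested in all 3 lines, only LRRC58, B4GALNT1 and BRCA1 fell by more than 2-fold in each.

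DAP, the autophagy regulator, varied little between replicates in each line. In PANC1, it went from 98.7, 104 and 99.8 FPKM to 20.3, 20.7 and 20.01 FPKM, a log2 fold change of -2.30 (standard error 0.0321). In MIA PaCa-2, its controls were at 55.1, 58.9 and 56.4 FPKM and its knockdown libraries at 12.7, 13.1 and 12.8 FPKM, 22.7% of the control mean. PATU8988T had 129.9, 128 and 128 FPKM in the controls and 83.2, 83.7 and 82.0 FPKM after knockdown, giving a log2 fold change of -0.63 (standard error 0.0315). The share left was 20.2% in PANC1, near that of MIA PaCa-2, and 64.4% for PATU8988T, and the groups overlapped in no line.

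SAPCD2, the spindle orientation gene, fell most in MIA PaCa-2. Its controls there were at 33.2, 57.3 and 33.4 FPKM and its knockdown libraries at 6.30, 5.93 and 5.67 FPKM, a log2 fold change of -2.72 (standard error 0.215), or -2.46 (standard error 0.0505) without control replicate 2, the highest control. In PANC1, where it was far lower, SAPCD2 went from 2.37, 3.00 and 2.81 FPKM to 0.639, 0.768 and 0.642 FPKM, a log2 fold change of -1.85 (standard error 0.135). With a pseudocount of 1 the PANC1 change was -1.14. In PATU8988T, values of 10.5, 10.7 and 10.9 FPKM went to 6.48, 7.21 and 6.92 FPKM, a log2 fold change of -0.63 (standard error 0.0550). The groups were separate in each line.

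TMEM123, the sialomucin-like surface protein, was among the most abundant of the 8 in all lines. In PANC1, it went from 131, 127 and 128 FPKM to 21.9, 21.8 and 23.0 FPKM, a log2 fold change of -2.53 (standard error 0.0318). In MIA PaCa-2, the controls were at 134, 64.2 and 136 FPKM and the knockdown libraries at 56.2, 58.7 and 54.6 FPKM, a log2 fold change of -0.90 (standard error 0.282). Control replicate 2 lay just above the knockdown libraries, and without it the change was -1.26 (standard error 0.0323), past 2-fold, so that 7 of the 7 tested genes then fell by more than 2-fold. In PATU8988T, TMEM123 was at 149.9, 147 and 141 FPKM in the controls and at 126, 102 and 124 FPKM after knockdown, giving a log2 fold change of -0.32 (standard error 0.0731), with 80.5% left.

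MLEC, the endoplasmic reticulum lectin, had separate groups in PANC1 and MIA PaCa-2 but not in PATU8988T. PANC1 controls were at 36.6, 36.7 and 36.8 FPKM and knockdown libraries at 10.6, 10.5 and 10.8 FPKM, a log2 fold change of -1.78 (standard error 0.0357). In MIA PaCa-2, it went from 28.3, 28.9 and 28.2 FPKM to 8.96, 8.54 and 9.17 FPKM, a log2 fold change of -1.67 (standard error 0.0758). The PATU8988T values were 20.8, 21.0 and 21.0 FPKM in the controls and 20.8, 20.7 and 20.5 FPKM after knockdown, giving a log2 fold change of -0.02 (standard error 0.0378). The groups overlapped in PATU8988T, where MLEC ranked 4498 and 98.8% of the control level was left.

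**Figure D2:**
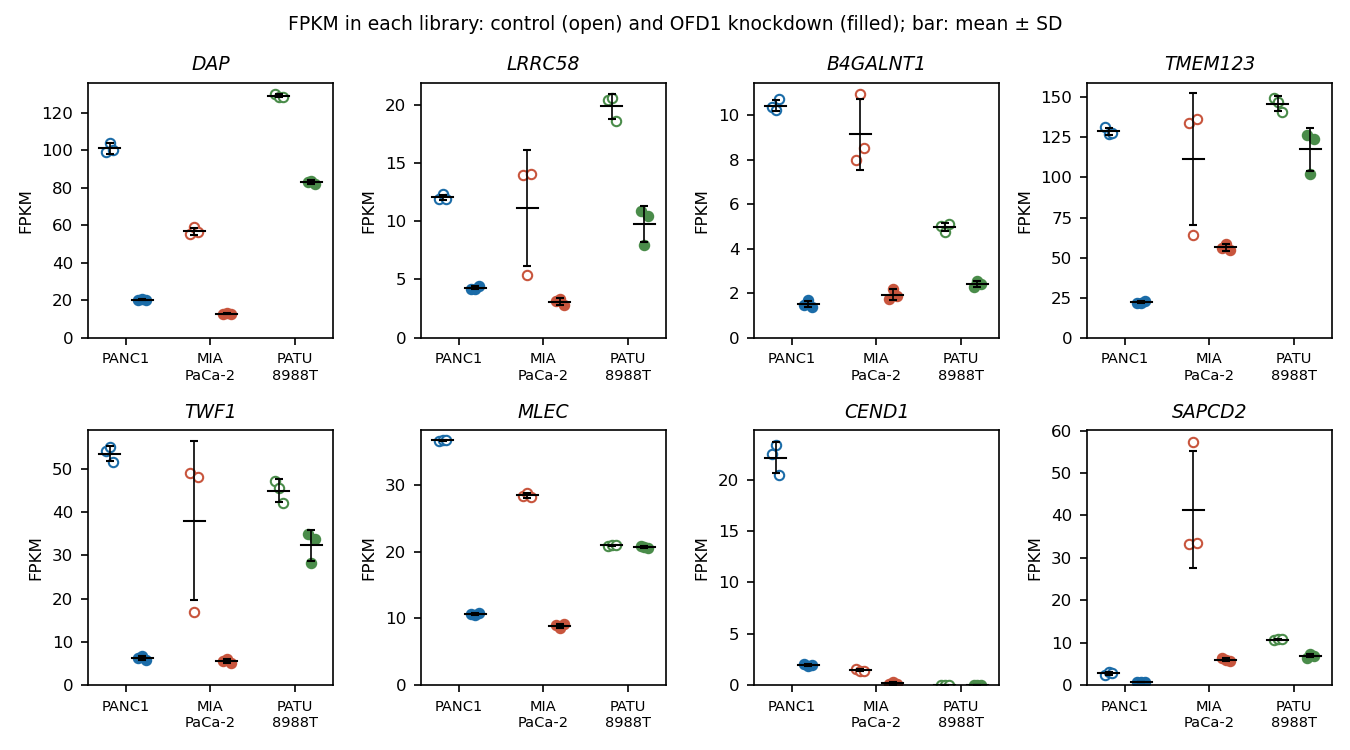
Each panel plots FPKM (y axis, from 0) of one gene in the 18 libraries, controls as open and OFD1 knockdown libraries as filled points, with the mean and SD of each group of 3 as a bar. The wide control bars of LRRC58, TMEM123, TWF1 and SAPCD2 in MIA PaCa-2 come from control replicate 2, and the MLEC groups overlap in PATU8988T.

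The genes were not simply the largest falls. In PANC1, CEND1, TWF1, B4GALNT1, TMEM123 and DAP ranked 2, 3, 7, 10 and 16 among all tested genes, and SAPCD2, MLEC and LRRC58 ranked 62, 77 and 167. In MIA PaCa-2, SAPCD2, TWF1, B4GALNT1 and DAP ranked 2, 5, 14 and 16, LRRC58 and MLEC 59 and 66, and TMEM123 554. The MIA PaCa-2 ranks, and the order of its other genes named below, include control replicate 2 and are not given without it. Leaving it out changed TWF1 to -3.12, SAPCD2 to -2.46, LRRC58 to -2.14 and TMEM123 to -1.26. LRRC58 at 80 and B4GALNT1 at 86 were the highest in PATU8988T, where the others ranked from 337 to 4498. Of the genes outside the 8, COX7C, a subunit of respiratory complex IV, fell most in PANC1 at a log2 fold change of -3.68 (standard error 0.0778), and ACADM, a mitochondrial fatty acid oxidation enzyme, at -2.93 and the semaphorin receptor NRP1 at -2.84 were also among the first 5. The histone variant H2AX at -2.80, COX7C at -2.72 and ACADM at -2.62 led in MIA PaCa-2, and those of PATU8988T were DEPP1 at -2.58, SEMA4B at -1.82 and TMEM158 at -1.82.

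**Figure D3:**
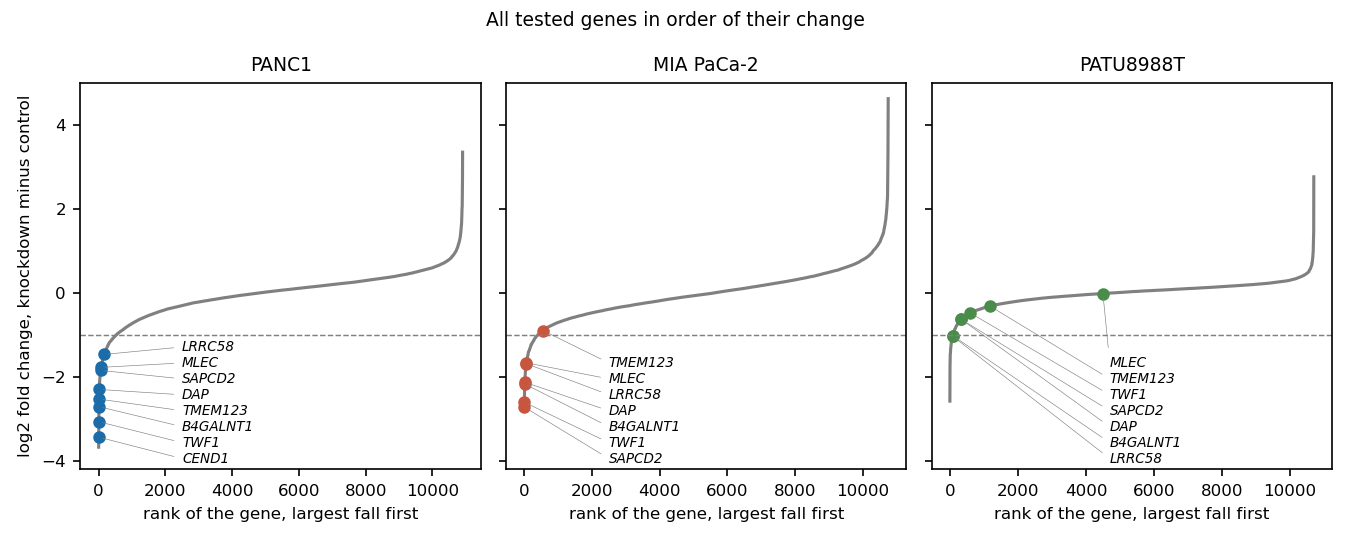
All tested genes of each line are ordered by log2 fold change (knockdown minus control, y axis), largest fall first (x axis, rank), with the 8 genes as points and the dashed line at a 2-fold fall. All 8 sit at the left end in PANC1, with ranks from 2 to 167, and the 7 tested in PATU8988T spread from rank 80 to 4498.

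The sequence matches shown above were not shared by all 8 genes. The shOFD1#1 seed match ACTAGAA occurred 2 times in the 3′ UTR of LRRC58, which is 6691 bases long, and 1 time in those of SAPCD2 and of DAP-201, 1 of the 2 coding transcripts of DAP. TMEM123, TWF1, MLEC and CEND1 held no match anywhere in their annotated coding transcripts, and the match of B4GALNT1 lay in its 5′ UTR. Thus 3 of the 8 had a match in the 3′ UTR of any transcript, against 11.4% of all genes with a 3′ UTR of at least 50 bases, and 1 of the 8 had 2 or more, against 1.58%. No guide-seed site of shOFD1#2 lay in a 3′ UTR of the 8. Among genes tested in PANC1, 7.49% held 1 or more in the transcript with the longest coding sequence. For the passenger of shOFD1#2, the strand paired with the guide, 3′ UTR seed sites numbered 4 in LRRC58, 4 in MLEC and 1 in B4GALNT1. The other genes of the 8 held none, and 20.4% of genes tested in PANC1 held 1 or more by the same count. Over the full 19 bases, the second LRRC58 site matched the OFD1 site at 15 positions, a score reached without gaps somewhere in the longest transcript of 1.62% of the genes tested in PANC1. TWF1 and MLEC reached 14, a score met by 12.4% of genes, DAP 13, met by 46.4%, and the other 4 genes 11 or 12 in their longest transcripts, where 12 was the median. Over all its coding transcripts, B4GALNT1 reached 13. Matches of 6 bases, to bases 2 to 7 of the guide, numbered 8 in LRRC58, 3 each in TMEM123, TWF1 and MLEC, 2 in DAP, 1 in SAPCD2 and 0 in B4GALNT1 and CEND1, and 5.67% of genes had 3 or more. A match is a sequence feature, and its part in any of these falls was not tested.

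The same matches were counted across all tested genes as a background. In PANC1, the median log2 fold change was 0.08 for the 9426 genes with no shOFD1#1 seed match in the 3′ UTR of the transcript with the longest coding sequence, -0.21 for the 919 with 1 match and -0.33 for the 142 with 2 or more, and falls of more than 2-fold were seen in 3.91%, 12.7% and 22.5% of them. In MIA PaCa-2, the medians were -0.03, -0.22 and -0.34 and the shares 3.03%, 11.3% and 17.4%. In PATU8988T, the medians were 0.03, -0.05 and -0.12 and the shares 0.799%, 0.484% and 1.54%. The medians were lower with more matches in each line, and the steps were smallest in PATU8988T. Genes with matches had longer 3′ UTRs, a median of 2812 bases with 1 match against 911 with none in PANC1, and among 3′ UTRs of 1000 to 3000 bases the median of genes with a match was lower than that of genes without by 0.34, 0.32 and 0.09 in PANC1, MIA PaCa-2 and PATU8988T. The difference over all genes was -0.30 in PANC1, -0.20 in MIA PaCa-2, or -0.30 without control replicate 2 and -0.13 without control replicate 1 or 3, and -0.09 in PATU8988T, or -0.06 without knockdown replicate 2. For the shOFD1#2 seed, the medians with and without a match were 0.06 and 0.06 for PANC1, 0.00 and -0.05 for MIA PaCa-2, and 0.03 and 0.03 for PATU8988T.

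Among the largest falls outside the 8, COX7C held 2 such matches and ACADM, NRP1, H2AX and SEMA4B 1 each in the 3′ UTR of at least 1 transcript, and DEPP1 and TMEM158 held 0. The shares by size of fall that follow used the 3′ UTR of the transcript with the longest coding sequence. By that count, 2 of the 8 held a match. In PANC1, 35.1% of the 37 genes with a log2 fold change below -2 held a match, as did 41.9% of the 117 from -2 to -1.5. The shares were 10.6% of the 3086 from -0.5 to 0 and 6.57% of the 4521 from 0 to 0.5. The shares in MIA PaCa-2 were 57.1% of 21 genes, 38.4% of 73, 8.92% of 3464 and 7.39% of 3097 in the same ranges. PATU8988T did not show this order, with 0 of 1 gene below -2, 12.5% of 8 from -2 to -1.5, 7.46% of 67 from -1.5 to -1, 16.9% of 408 from -1 to -0.5, 12.8% of 3903 from -0.5 to 0 and 7.24% of 5221 from 0 to 0.5.

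The genomic surroundings of the 8 genes were read from the same annotation. In GRCh38, DAP spans chr5:10679230-10761272, LRRC58 chr3:120324509-120349339, SAPCD2 chr9:137062124-137070588, TMEM123 chr11:102396332-102470384 and CEND1 chr11:787104-790123, all on the minus strand. On chromosome 12 lie TWF1 (chr12:43793723-43806375) and B4GALNT1 (chr12:57623410-57633355), on the minus strand, and MLEC (chr12:120686869-120701864), on the plus strand. The 2 nearest protein-coding genes on each side gave 32 neighbours, of which 20, 19 and 21 were tested in PANC1, MIA PaCa-2 and PATU8988T. By limma, at 0.05 for the adjusted p and a change of more than 2-fold, none was lower in any line (background 4.84%, 3.68% and 0.841% called lower) and 1 was higher (background 1.75%, 4.07% and 0.159% called higher). The 1 was BIRC3, an inhibitor of apoptosis that is the second gene on one side of TMEM123, which in MIA PaCa-2 rose from 5.13 ± 1.57 to 20.1 ± 0.278 FPKM (SD, n = 3 each; log2 fold change 2.0004, limma adjusted p = 0.00109), with a log2 fold change of 1.72 without control replicate 2. BIRC2, which lies between BIRC3 and TMEM123, was not called there. Without the fold limit, 15, 7 and 12 neighbours passed the adjusted p of limma, where 72.3%, 40.4% and 39.4% of all tested genes did, and 16, 8 and 14 passed the unadjusted p of 0.05, where 74.3%, 50.3% and 48.5% of all tested genes did. The 7 in MIA PaCa-2 were 13 without control replicate 2, where 75.3% of all tested genes passed, and 3 without any 1 of the knockdown libraries. SAPCD2 was flanked by UAP1L1, named here after its values were seen, with log2 fold changes of -0.85, -0.58 and -0.45 in the 3 lines (limma adjusted p = 1.82e-05, 0.0252 and 0.00071), and of -0.41 in MIA PaCa-2 without control replicate 2, each smaller than that of SAPCD2. The other tested neighbours of SAPCD2, also named after their values were seen, were lower in each line too. Log2 fold changes were -0.35, -0.38 and -0.39 for NPDC1 and -0.53, -0.43 and -0.32 for MAN1B1. Without control replicate 2, their MIA PaCa-2 values were -0.14 and -0.29. NPDC1 did not pass the adjusted p in MIA PaCa-2 (limma adjusted p = 0.161), but did without control replicate 2 (limma adjusted p = 0.00318).

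Genes acting in the same pathways were taken from 10 lists of 159 genes in all, the 8 left out. In PANC1, 8 of the 146 tested were called lower (5.48%) and 2 higher (1.37%). The 2 include CCND2, which counted as tested only through its knockdown libraries. MIA PaCa-2 had 6 lower (4.58%) and 2 higher (1.53%) of 131. PATU8988T had 2 lower (1.43%) and 0 higher of 140. The 2 include CDKN1C, a gene of low level from whose call nothing is read. The backgrounds are the 4.84%, 3.68% and 0.841% of all tested genes called lower and the 1.75%, 4.07% and 0.159% called higher.

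Around TWF1, none of the tested genes for actin monomer binding and capping, 21, 20 and 20 in the 3 lines, passed the limma threshold, with 16, 10 and 11 at an unadjusted p below 0.05. Such counts are to be read against the 74.3%, 50.3% and 48.5% of all tested genes with an unadjusted p below 0.05 in PANC1, MIA PaCa-2 and PATU8988T, here and for the lists that follow. Around DAP, none of the 15, 13 and 13 tested genes of mTORC1 and the start of autophagy did, with 15, 5 and 7 at an unadjusted p below 0.05. Among the other death-associated proteins, EIF4G2, a translation factor also known as DAP5, fell in MIA PaCa-2 from 316 ± 43.8 to 106 ± 0.535 FPKM (SD, n = 3 each; log2 fold change -1.57, limma adjusted p = 0.000203).

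For ganglioside synthesis, 2 of 16 tested genes were called lower in PANC1, B4GALT6, which makes lactosylceramide, at -1.04 (limma adjusted p = 6.92e-08) and B3GALNT1, globoside synthase, at -1.01 (limma adjusted p = 1.97e-06). None of the 10 tested in MIA PaCa-2 and none of the 14 in PATU8988T passed by limma, with 2 and 12 at an unadjusted p below 0.05. B3GALNT1 was not past 2-fold without PANC1 control replicate 1, at -0.96, or without knockdown replicate 3, at -0.95.

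Of the genes of N-glycan transfer and quality control around MLEC, 3 of 26 were called lower in PANC1, 2 of 25 in MIA PaCa-2 and, by limma, 0 of 25 in PATU8988T, where 11 had an unadjusted p below 0.05. OSTC, a subunit of the oligosaccharyltransferase, fell by 1.81 on the log2 scale in PANC1 and by 1.54 in MIA PaCa-2 (limma adjusted p = 6.75e-09 and 0.000814), and the chaperone CALR had log2 fold changes of -1.08 and -1.23 (limma adjusted p = 7.53e-11 and 0.000668). EDEM1, which helps clear misfolded glycoproteins, was called in PANC1 at -1.19 (limma adjusted p = 8.76e-09). The median log2 fold change of the list was -0.36, -0.24 and -0.07 in the 3 lines.

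Of the 5 tested sialomucins beside TMEM123, MUC1 was called higher in MIA PaCa-2, from 1.30 ± 0.143 to 6.14 ± 0.268 FPKM (SD, n = 3 each; limma adjusted p = 0.000156), and lower in PATU8988T, from 7.91 ± 0.791 to 3.75 ± 0.406 FPKM (SD, n = 3 each; limma adjusted p = 4.29e-05). The PATU8988T change, -1.06, was -0.99 without control replicate 2 and -0.98 without knockdown replicate 3.

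Around SAPCD2, 2 of the 19 tested spindle orientation genes were called lower in PANC1, 1 of 17 in MIA PaCa-2 and, by limma, 0 of 19 in PATU8988T, where 9 had an unadjusted p below 0.05. The mitotic kinase PLK1 had log2 fold changes of -1.15 and -1.30 in PANC1 and MIA PaCa-2 (limma adjusted p = 1.48e-08 and 0.000173), and AURKA, another mitotic kinase, was called in PANC1 at -1.002 (limma adjusted p = 4.02e-09), a value that was at the limit and was not past it without control replicate 1 or 3 or knockdown replicate 2 or 3, at -0.99 to -0.997.

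Beside CEND1, the list of its partners and of cell cycle exit genes had calls in both directions. The cyclin CCND2 rose in PANC1 from 0.412 ± 0.0838 to 1.62 ± 0.167 FPKM (SD, n = 3 each; limma adjusted p = 8.23e-06), and the CDK inhibitor CDKN1A in MIA PaCa-2 from 1.33 ± 0.400 to 10.7 ± 0.557 FPKM (SD, n = 3 each; limma adjusted p = 0.000202). The CCND2 controls were below 1 FPKM in mean, so it counted as tested only through its knockdown libraries, and nothing is read from its call. It fell below the level for testing without any 1 of the PANC1 knockdown libraries. In MIA PaCa-2, CCND3 was called lower at -1.06 (limma adjusted p = 0.00139), which became -0.93 without control replicate 2, and in PATU8988T CDKN1C was called lower at -1.09 (limma adjusted p = 0.00169), which became -0.99 without control replicate 2 and -0.98 without knockdown replicate 1 or 3. CDKN1C was below the filter at 5 FPKM and at -0.67 with a pseudocount of 1, so nothing is read from its call either.

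The elongin and cullin adaptor genes set beside LRRC58 gave 1 call in each of PANC1 and MIA PaCa-2, KLHDC10, a Kelch-type substrate adaptor, at -1.26 and -1.38 (limma adjusted p = 2.60e-08 and 0.00121). Of the RNA interference machinery, which acts on shRNAs, TNRC6A, a partner of the Argonaute proteins, rose in PANC1 from 20.6 ± 0.399 to 52.6 ± 1.47 FPKM (SD, n = 3 each; limma adjusted p = 7.63e-10), and no other tested gene of this list passed in any line, with 7 of 11 in MIA PaCa-2 and 8 of 11 in PATU8988T at an unadjusted p below 0.05.

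The genes whose pattern over the 18 libraries was most like that of each of the 8, on log2 values relative to the control mean of each line, were B4GALT1 (r = 0.998) and ESPL1 (0.992) for DAP, FXR1 (0.982) and OTUD4 (0.979) for LRRC58, and PTTG1IP (0.994) and DGUOK (0.989) for B4GALNT1. They were BPNT2 (0.991) and CD46 (0.990) for TMEM123, YES1 (0.997) and CYB5B (0.995) for TWF1, RANBP1 (0.997) and GTSE1 (0.996) for MLEC, and PPP2R5D (0.995) and PLOD3 (0.994) for SAPCD2. For CEND1, compared over the 6 PANC1 libraries only, MYLK and RAVER2 both reached r of 0.9999. The r values are Pearson correlations over libraries that share the contrast and control replicate 2 of MIA PaCa-2, taken as the highest of 9083 genes or, for CEND1, of 10902, and they describe these libraries only.

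Copies and overlapping transcripts limit some of the values. SAPCD2 has 4 pseudogenes named after it in the annotation and TWF1, MLEC and CEND1 1 each, none of them a row of the table, so reads shared with them could not be assigned. Exons of B4GALNT1 overlap SLC26A10 on the other strand, and those of DAP, TMEM123, MLEC and SAPCD2 overlap antisense transcripts, and whether strand was used in counting is not given in the sources used here. Promoters in the RefSeq set for GRCh38.p14, a window around the start of each gene, were found for 6 of the 8 genes, LRRC58, TMEM123, TWF1, MLEC, CEND1 and SAPCD2. On either strand, CCAAT was found in MLEC and SAPCD2 (34.6% of 35116 promoters), TTTGAA in SAPCD2 (15.2%), TTCCCGC in MLEC (6.55%) and TTGCCGC in TWF1 (2.39%), and no motif of the 7 searched, which also included TTCGAA (1.45%), TTGGCGC (3.04%) and TTCGCGC (2.24%), was shared by more than 2 of them.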

How the data were processed

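RNA from 18 libraries of PANC1, MIA PaCa-2 and PATU8988T cells was analysed. The authors deposited FPKM values per gene symbol; per the study's methods, HISAT2 mapped the reads and HTSeq-count assigned them to genes. The labels list the builds hg38, mm10 and GRCm38 without saying which was used, and name another extraction and library kit than the methods. All 18 columns were used and 0 were left out. Because the values are FPKM, the count test of the study was replaced by limma 3.58.1 (R 4.3.3), with lmFit and eBayes with trend on log2(FPKM + 0.1), per line, over genes with a mean of at least 1 FPKM, and Benjamini-Hochberg adjustment over all of them; calls needed 0.05 for the adjusted p and a change of more than 2-fold. Fold changes are on the log2(FPKM + 0.1) scale, which understates those of low genes. FPKM steps gave the whole reads behind each value and hence the depth. The steps were tested on simulated data. Tables were joined with Python 3.11.15 and pandas 2.3.3.

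Transcripts came from GENCODE v29 (GRCh38), with 10879, 10077 and 10072 of the tested genes matched by symbol or Ensembl ID. The 8 genes and the lists were chosen with earlier results of these data known. Named were the 8 genes, OFD1, called genes of the lists (at most 4 a list) and neighbours (at most 6), the 3 largest other falls per line and the 2 most similar genes to each. Nothing says that replicates are separate cultures, so standard errors and p-values may measure technical spread only. No 2 replicates differed by less than the sampling noise. Alternatives were a pseudocount of 1 or 0.01, no filter or at least 5 FPKM, other scalings, a replicate block, the adjusted p alone and leaving out each library.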

Additional observations from a re-analysis of the deposited data

Results flagged for a closer look

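No one of the 8 genes moved in opposite directions in different lines with separate groups. Of the pathway and neighbouring genes that were called, 5 did, with all knockdown libraries above all controls in at least 1 line and below them in another, and these differences between lines were not tested. The log2 fold changes in PANC1, MIA PaCa-2 and PATU8988T were -0.43, 2.16 and -1.06 for MUC1 and 0.16, 2.0004 and -0.33 for BIRC3. They were -1.002, -0.99 and 0.19 for AURKA, -1.15, -1.30 and 0.11 for PLK1, and -0.47, -1.06 and 0.24 for CCND3. Without control replicate 2 of MIA PaCa-2, CCND3 was at -0.93 in that line.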

How the results depend on the processing

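The log2 fold changes of the 8 genes were below 0 in all 284 repeats under other settings, of which 261 moved them by less than the spread between replicates. Since the genes were chosen for falls in these same libraries, nothing is read from that direction. In MIA PaCa-2, the spread itself includes control replicate 2 and was 0.63 for TWF1. Its change went from -2.61 to -3.12 without that library and still counted as moved by less. The count of 261 therefore cannot show that the MIA PaCa-2 values hold without that library. On leaving out 1 library, the number past a 2-fold fall stayed at 8 in PANC1, was 6 to 7 in MIA PaCa-2 and 1 to 2 in PATU8988T. In PATU8988T it was 0 with a pseudocount of 1. With a filter at 5 FPKM it was 7 in PANC1, where SAPCD2 is left out, and 1 in PATU8988T, where B4GALNT1 is left out. Pathway genes called numbered 7 to 10, 8 to 10 and 0 to 2 on leaving out 1 library. With a pseudocount of 1 they were 6 in PANC1 and 0 in PATU8988T, with the filter at 5 FPKM 1 in PATU8988T, and with the adjusted p alone 119, 51 and 71, of which the 51 were 107 without MIA PaCa-2 control replicate 2 and 24 to 27 without any 1 of its knockdown libraries, and the 71 were 42 without PATU8988T control replicate 2 and 47 without control replicate 1 or 3. Neighbours called were 2 in PANC1 with no filter, and 15, 7 and 12 with the adjusted p alone, the 7 of MIA PaCa-2 becoming 13 without control replicate 2 and 3 without any 1 of the knockdown libraries, and the 12 becoming 8 without PATU8988T control replicate 1. These counts without 1 library were added after seeing the data. The difference of the medians with and without a shOFD1#1 seed match in PANC1, -0.30 as reported, was -0.14 for bases 2 to 7, -0.27 for a guide starting 1 base later, -0.24 over any transcript, -0.36 from 5 FPKM and -0.34 among 3′ UTRs of 1000 to 3000 bases, the last chosen after seeing the data; in MIA PaCa-2 it was -0.20, and -0.13 to -0.30 on leaving out 1 library, and in PATU8988T it went from -0.09 to -0.06 without knockdown replicate 2. The cause was not tested.

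Same-numbered control and knockdown libraries had correlated deviations of -0.11 to 0.13, so that the numbers were not taken as pairs. With a replicate block, 8, 6 and 2 of the 8 genes were past a 2-fold fall, 10, 8 and 2 pathway genes were called and 0, 1 and 0 neighbours, as without it. The depth limits CEND1, with at most 2 reads per library in PATU8988T.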
